A study of Homo sapiens with 20 samples.

Results

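The chaperone HSP90 and the co-chaperones that work with it were followed by their RNA in HEL cells, a human erythroleukaemia line that the labels describe as carrying JAK2 V617F. The group comprised 10 genes taken by symbol, with 1 gene identifier each: HSP90AA1, HSP90AB1, CHORDC1, STIP1, AHSA1, FKBP4, FKBP5, CDC37, PTGES3 and TRAP1. They were 10 of the 55093 genes in each of the tables on BCI and on BI-D1870, and 10 of the 34213 genes in the table on cells that persist under a JAK2 inhibitor. Every member passed the low-count filter in each table. BCI is an inhibitor of the phosphatase DUSP6, and BI-D1870 is an inhibitor of the RSK kinases, which act downstream of ERK. The groups, each of 2 libraries, were cells given 1 µM BCI or DMSO, the vehicle, for 4 h, cells given the same for 48 h, cells given 10 µM BI-D1870 together with 1 µM BCI, 10 µM BI-D1870 alone or DMSO for 24 h, fedratinib-persistent cells (FedP), ruxolitinib-persistent cells (RuxP) and parental cells. The persistent cells came from long culture with a JAK2 inhibitor, and the sources used here do not give its dose, the length of culture, the number of clones or whether it was present at harvest. By the labels, no group had BCI alone at 24 h, although the column headings of the 48 h libraries say 24 h. The allele was shared by all 10 groups.

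HSP90 is an ATP-driven chaperone that holds kinases and steroid receptors in a state that can be activated, and JAK2 is among its known clients. HSP90AA1 encodes the stress-inducible cytosolic form and HSP90AB1 the constitutive cytosolic form, while TRAP1 encodes the mitochondrial form. Co-chaperones set the pace of the cycle: STIP1 (HOP) passes clients over from HSP70, CDC37 brings kinases, AHSA1 (AHA1) speeds up ATP hydrolysis, PTGES3 (p23) stabilises the closed state, FKBP4 (FKBP52) and FKBP5 (FKBP51) are immunophilins that act on steroid receptors, and CHORDC1 (morgana) binds HSP90 through its CHORD and CS domains. Several of these genes are known targets of heat shock factor 1, which binds inverted repeats of the unit nGAAn, and FKBP5 is a known target of the glucocorticoid receptor.

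RefSeq promoter windows of GRCh38.p14, from 250 bases before to 50 bases after a transcript start, were found for 9 members, with 15 windows in all, and they are shown because the members differed in the heat shock elements they hold. The element of 3 units, GAANNTTCNNGAA or TTCNNGAANNTTC on either strand, was present in 0.49% of the 35116 windows of all genes and in windows of 3 members. Capitals mark these elements, or for STIP1 the pair of units TTCNNGAA. The CHORDC1 stretch, chr11:90223067-90223129 on the minus strand, held 3 overlapping elements, the HSP90AA1 stretch, chr14:102087100-102087152 on the minus strand, held 1, and the HSP90AB1 stretch, chr6:44247758-44247863 on the plus strand, held 2. The STIP1 stretch, chr11:64186164-64186211 on the plus strand, held a pair and no element of 3, and a pair in either order (GAANNTTC or TTCNNGAA) was present in 13.5% of all windows.
CHORDC1: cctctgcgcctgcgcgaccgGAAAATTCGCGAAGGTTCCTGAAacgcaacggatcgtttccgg
HSP90AA1: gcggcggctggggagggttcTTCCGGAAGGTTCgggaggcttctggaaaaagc
HSP90AB1: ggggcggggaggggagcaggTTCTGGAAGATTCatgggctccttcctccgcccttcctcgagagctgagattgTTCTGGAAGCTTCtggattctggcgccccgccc
STIP1: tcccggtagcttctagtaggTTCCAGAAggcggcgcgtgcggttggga
No pair was present in the windows of AHSA1, CDC37, FKBP5, PTGES3 or TRAP1, nor in the other windows of HSP90AA1, HSP90AB1 and STIP1. The pair TTCNNNGAA, as bound by STAT factors, was present in none of the 15 windows and in 7.66% of all windows. A match is a run of letters and not a measured binding site.

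Library totals ran between 63916850 and 84452743 counts in the BCI table, between 54141164 and 70128404 in the BI-D1870 table and between 51799814 and 79755715 in the table on persistent cells, and no member had fewer than 2081 counts in a library. Levels are given as CPM, counts scaled to a fixed library total, normalised to the library by the trimmed mean of M values. Of 13 erythroid and megakaryocytic markers, 12 or 13 reached 1 CPM in each group, while of markers of other cells 1 or 2 of 5 lymphoid, 2 of 6 epithelial and stromal and 1 of 3 monocyte genes did. The lymphoid genes CD3E and MS4A1, the monocyte genes CD14 and FCGR3A and the stromal genes COL1A2 and DCN stayed at or under 0.925 CPM, whereas CD2 reached 22.0 CPM, CD79A 7.88 CPM, KRT8 34.2 CPM, KRT18 26.7 CPM and LYZ 54.3 CPM. The biological variation fitted across genes was 13.3% in the BCI table, 5.01% in the BI-D1870 table and 26.9% in the table on persistent cells. In bulk RNA, fewer cells with a transcript and less of it per cell cannot be told apart. Reads of HSP90AA1 and HSP90AB1 can be split with their processed copies: 8 such copies took 2.36% to 3.46% of the HSP90AA1, HSP90AB1 and copy counts in the BCI and BI-D1870 tables. Annotated exons overlapped those of WDR20 on the other strand by 197 bases at HSP90AA1 and those of DNASE1 by 1531 bases at TRAP1, so some reads may be shared.

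Among controls, HSP90AB1 was the most abundant member per kilobase of exon and CHORDC1 the least. In 4 h DMSO cells HSP90AB1 averaged 825.5 CPM per kb, and in 24 h DMSO cells 946.1 CPM per kb. The second place went to CDC37 in 4 h DMSO cells (266.1 CPM per kb, ahead of HSP90AA1 at 213.8 CPM per kb). In 24 h DMSO cells it went to HSP90AA1 (308.3 CPM per kb, ahead of CDC37 at 170.2 CPM per kb). The length is the union of all annotated exons of a gene, and the order depends on it. In CPM without this scaling, HSP90AA1 averaged 1122 and CDC37 809.2 in 4 h DMSO cells. FKBP4 and AHSA1 were neighbours at 56.2 and 56.1 CPM per kb in 4 h DMSO cells, where their libraries overlapped and those of no other neighbours did. In parental cells the order was that of 4 h DMSO cells throughout, from HSP90AB1 at 646.4 CPM per kb to CHORDC1 at 5.69 CPM per kb, and the libraries of FKBP4 and AHSA1 overlapped again, as did those of FKBP5 with TRAP1 and with CHORDC1. The tables were scaled separately, so only the order within each is compared.

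After 4 h of BCI, RNA of both cytosolic HSP90 genes and of 5 co-chaperones rose, while FKBP5, CDC37 and TRAP1 did not pass the test. Against a background of 10.7% of the 21908 genes called in either direction, 4.8% higher and 5.94% lower (edgeR quasi-likelihood test, Benjamini-Hochberg adjusted p under 0.05), 7 members were higher, none was lower and 3 did not pass. The median log2 fold change was 0.80 over the members and 0.02 over all genes tested. HSP90AA1 (ENSG00000080824, chr14:102080738-102139699, minus strand) had 3851 and 3802 CPM with BCI, against 1125 and 1119 CPM with DMSO. The libraries of the 2 groups lay far apart, a 3.41-fold rise with a log2 fold change of 1.77 (SE 0.0640, adjusted p = 1.3e-06), and the gene ranked 4 among all genes by p. HSP90AB1 (ENSG00000096384, chr6:44246166-44253888, plus strand) had 4090 and 3904 CPM with BCI, against 2456 and 2464 CPM with DMSO. It also did not overlap, and rose less, with a log2 fold change of 0.70 (SE 0.117, adjusted p = 0.0054). That call did not hold when DMSO library 1, DMSO library 2 or BCI library 1 was left out (adjusted p = 0.068, 0.072 and 0.069), with the log2 fold change between 0.66 and 0.73 over the 4 fits with a library left out.

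Among the co-chaperones, CHORDC1 (ENSG00000110172, chr11:90201160-90223364, minus strand) had the largest rise. It had 260.4 and 261.2 CPM with BCI, against 76.8 and 73.6 CPM with DMSO, a log2 fold change of 1.79 (SE 0.0793, adjusted p = 4.3e-06). PTGES3 (ENSG00000110958, chr12:56663341-56688408, minus strand) had 658.4 and 650.1 CPM with BCI, against 321.7 and 317.8 CPM with DMSO, a log2 fold change of 1.03 (SE 0.0678, adjusted p = 4.8e-05). In both genes the replicates lay close together and the groups far apart. AHSA1, the activator of the ATPase (ENSG00000100591, chr14:77457870-77469474, plus strand), had 334.3 and 288.8 CPM with BCI, against 165.6 and 165.1 CPM with DMSO, a log2 fold change of 0.91 (SE 0.0897, adjusted p = 0.00038). STIP1, the link to HSP70 (ENSG00000168439, chr11:64185272-64204543, plus strand), had 1091 and 1002 CPM with BCI, against 587.0 and 586.1 CPM with DMSO, a log2 fold change of 0.84 (SE 0.0869, adjusted p = 0.00051). FKBP4 (ENSG00000004478, chr12:2794953-2805423, plus strand) had 518.9 and 473.3 CPM with BCI, against 290.3 and 292.3 CPM with DMSO, a log2 fold change of 0.77 (SE 0.0860, adjusted p = 0.00074). In each of these the lower BCI library stood above both DMSO libraries.

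**Figure D1:**
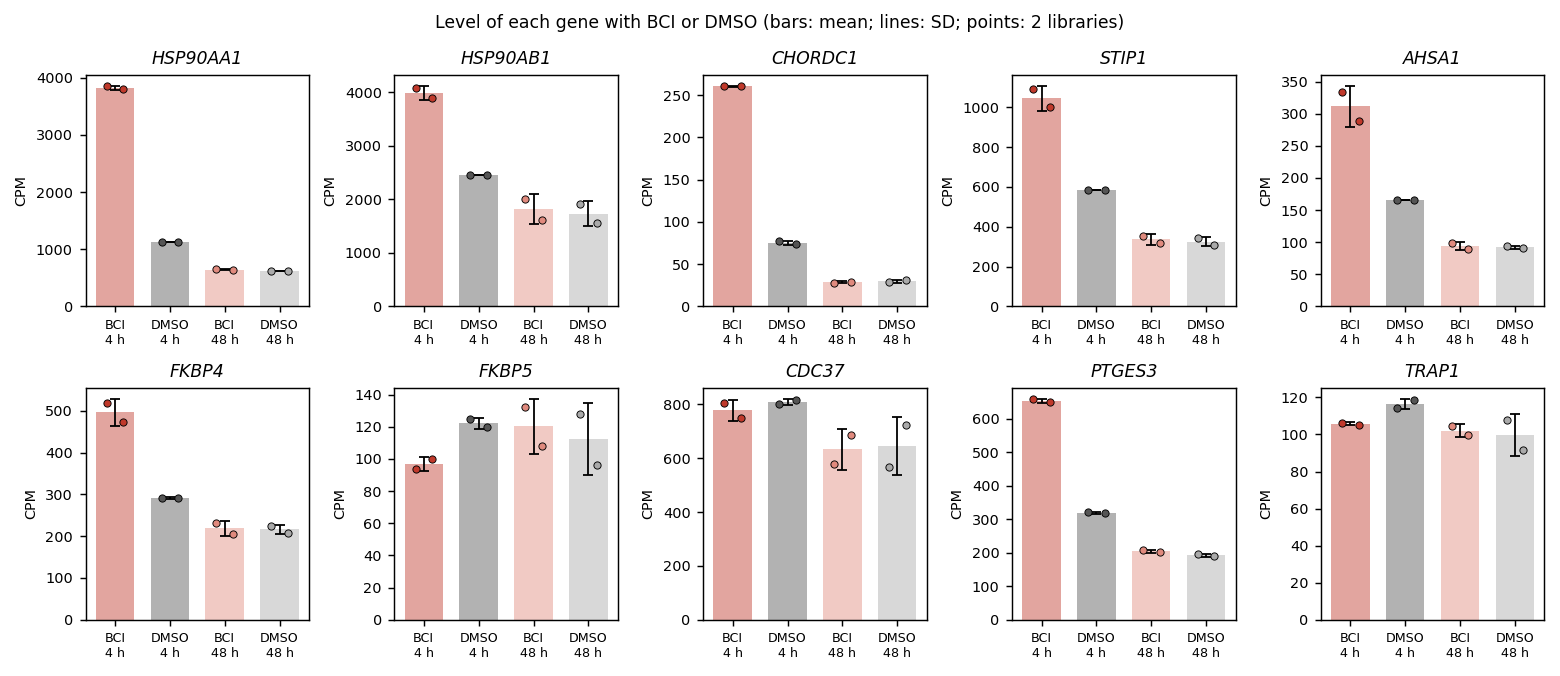
CPM of the 10 genes with BCI and with DMSO at 4 h and at 48 h. Bars are means, lines are SD and points are the 2 libraries of each group; at 4 h the BCI points of 7 genes lie clear above those of DMSO, as for HSP90AA1 at 3851 and 3802 against 1125 and 1119 CPM, and at 48 h the groups lie close together.

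The other immunophilin did not move with FKBP4. FKBP5 (ENSG00000096060, chr6:35573585-35728583, minus strand) had 93.8 and 100.1 CPM with BCI, against 124.5 and 119.6 CPM with DMSO. Both BCI libraries were below both DMSO libraries, and the log2 fold change of -0.33 (95% interval -0.64 to -0.03) did not pass after adjustment (adjusted p = 0.17); it passed when only the 4 libraries compared were fitted (adjusted p = 0.00027) and without the low-count filter (adjusted p = 0.023). The ratio of FKBP4 to FKBP5 counts per kb was 10.5 ± 1.17 with BCI and 4.90 ± 0.163 with DMSO (SD, n = 2 each). CDC37, the kinase-specific co-chaperone (ENSG00000105401, chr19:10391134-10420121, minus strand), had 805.4 and 750.4 CPM with BCI, against 801.3 and 817.1 CPM with DMSO, where the groups overlapped, and its log2 fold change of -0.06 had a 95% interval of -0.32 to 0.21. TRAP1, the mitochondrial form (ENSG00000126602, chr16:3651639-3717597, minus strand), had 106.4 and 105.2 CPM with BCI, against 114.4 and 118.4 CPM with DMSO. Its log2 fold change of -0.14 had a 95% interval of -0.34 to 0.06 and did not pass (adjusted p = 0.41).

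Other genes around HSP90 were counted in lists, against the 4.8% of all genes higher and 5.94% lower with BCI at 4 h. Of 35 further co-chaperones, HSP90 paralogs and factors of the R2TP and TTT complexes, 7 rose with BCI at 4 h, 1 fell and 27 did not pass, with a median log2 fold change of -0.04. CACYBP, which binds SIAH1 and S100 proteins, had 254.5 and 248.0 CPM with BCI, against 94.9 and 92.0 CPM with DMSO, a log2 fold change of 1.43 (SE 0.102, adjusted p = 7.9e-05). AHSA2P, a pseudogene related to AHSA1, rose by 1.16 and PPID, the cyclophilin of the receptor complexes, by 1.04 on the log2 scale (adjusted p = 0.00030 and 0.00062). When any of the 4 libraries at 4 h was left out, 5 of this list were higher and none lower; when only the groups compared were fitted, 8 were higher and 8 lower. Of 18 chaperones outside the HSP90 group that are known targets of heat shock factor 1, 15 rose, none fell and 3 did not pass, with a median of 2.28. HSPA1A, an inducible HSP70 gene that shares near-identical sequence with HSPA1B, had 448.6 and 323.2 CPM with BCI, against 18.6 and 18.0 CPM with DMSO, a log2 fold change of 4.40 (SE 0.470, adjusted p = 0.00060). Of the heat shock factors and their regulators, 7 in number, 1 rose and 6 did not pass; the riser was the acetyltransferase EP300, by 0.31 (adjusted p = 0.033), and no gene of that list passed when any library at 4 h was left out.

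Clients of HSP90 and targets of the glucocorticoid receptor were counted as well, against the 4.8% of all genes higher and 5.94% lower. Of 33 kinases, receptors and other clients tested, 2 rose with BCI at 4 h, 6 fell and 25 did not pass, with a median log2 fold change of -0.05. KIT, a receptor tyrosine kinase, had 9.77 and 9.60 CPM with BCI, against 30.8 and 28.1 CPM with DMSO, a log2 fold change of -1.60 (SE 0.220, adjusted p = 0.0020). TERT, the catalytic subunit of telomerase, fell by 1.58 on the log2 scale (adjusted p = 0.0077). With a library at 4 h left out, between 3 and 4 of these genes passed in all, and 14 passed when only the groups compared were fitted. Of 13 glucocorticoid receptor targets tested, 1 rose, 3 fell and 9 did not pass: the phosphatase DUSP1 rose by 1.34, and CEBPD and PER1 fell by 0.92 and 0.81 (adjusted p = 0.0012, 0.020 and 0.0033). Without DMSO library 2, 1 target was higher and none lower, and without either BCI library 1 was higher and 1 lower.

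At 48 h the members did not differ detectably between BCI and DMSO. No member was called and 0% of the 21908 genes were called (edgeR quasi-likelihood test); at an unadjusted p under 0.05 there were 0 members and 316 genes, and DESeq2 called 0 members and 0 genes. HSP90AA1 had 647.4 and 635.5 CPM with BCI, against 614.3 and 613.5 CPM with DMSO, a log2 fold change of 0.06 with a 95% interval of -0.08 to 0.20. CHORDC1 had 27.5 and 29.1 CPM with BCI, against 28.6 and 31.0 CPM with DMSO, where the groups overlapped (log2 fold change -0.07, interval -0.25 to 0.10). Over the 10 members the log2 fold changes lay between -0.07 and 0.10, and the upper bounds of the intervals between 0.10 and 0.41. HSP90AB1 had 2014 and 1614 CPM with BCI and 1905 and 1568 CPM with DMSO, so that at this time the libraries numbered 1 were higher in both groups. Across genes, deviations of same-numbered libraries correlated at 0.83 between the groups at 48 h. The test did not pair these libraries, so a small difference within pairs could be missed.

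The test of the difference between the times gave 6 members a lower response at 48 h, against 1.37% of all genes lower, 2.08% higher and 3.46% called in either direction. The BCI response at 48 h minus that at 4 h was -1.87 for CHORDC1 and -1.71 for HSP90AA1 on the log2 scale (SE 0.111 and 0.0885, adjusted p = 7.5e-05 and 3.0e-05). It was -0.94 for PTGES3, -0.88 for AHSA1, -0.78 for STIP1 and -0.75 for FKBP4 (adjusted p = 0.0016, 0.0072, 0.011 and 0.012). These were genes that had risen at 4 h, and the same 4 h libraries entered this test. HSP90AB1 had a difference of -0.64 that did not pass (adjusted p = 0.074); it passed with DESeq2 (adjusted p = 0.015), without the low-count filter (adjusted p = 2.2e-07), and without DMSO library 2 or BCI library 1 of 48 h (adjusted p = 0.012 and 0.026). FKBP5 had a difference of 0.43 (adjusted p = 0.29) that passed without DMSO library 1 of 48 h (0.65, adjusted p = 0.025). Leaving out a library at 4 h lowered the number of members called to 3 (without DMSO library 1, DMSO library 2 or BCI library 1) or 4 (without BCI library 2), with STIP1 and FKBP4 lost each time and AHSA1 lost in 3 of the 4 fits. CHORDC1, HSP90AA1 and PTGES3 passed in all 8 fits with a library left out. Of the known targets of heat shock factor 1 outside the group, 14 of 18 were lower in this difference and none was higher, and of the further co-chaperones 5 of 35 were lower and none was higher. These counts were 8 of 18 without DMSO library 2 or BCI library 1 of 4 h, and 2 of 35 without any of the 4 libraries of 4 h.

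Both cytosolic HSP90 genes and 5 co-chaperones were lower in the later DMSO cells than in the earlier ones, while CDC37, TRAP1 and FKBP5 did not pass. Against a background of 13.2% of genes lower, 13.5% higher and 26.6% called in either direction, 7 members were lower in 48 h DMSO cells than in 4 h DMSO cells, none was higher and 3 did not pass. CHORDC1 had 28.6 and 31.0 CPM at 48 h, against 76.8 and 73.6 CPM at 4 h, a log2 fold change of -1.34 (SE 0.0792, adjusted p = 4.1e-05). HSP90AA1 had 614.3 and 613.5 CPM at 48 h, against 1125 and 1119 CPM at 4 h, a log2 fold change of -0.87 (adjusted p = 6.6e-05). STIP1 and AHSA1 each fell by 0.85, PTGES3 by 0.73, HSP90AB1 by 0.50 and FKBP4 by 0.43 on the log2 scale, with adjusted p between 0.00018 for PTGES3 and 0.012 for HSP90AB1. HSP90AB1 did not pass without either DMSO library of 4 h (adjusted p = 0.071 and 0.073), nor FKBP4 without DMSO library 2 of 4 h (adjusted p = 0.053). CDC37, with a log2 fold change of -0.33 (adjusted p = 0.071), was called lower with DESeq2 (adjusted p = 0.038), without the low-count filter (adjusted p = 0.0018) and without DMSO library 2 of 48 h (adjusted p = 0.0055), and TRAP1 (log2 fold change -0.22, adjusted p = 0.098) without DMSO library 1 of 48 h (adjusted p = 0.015). Culture time, density and library preparation cannot be told apart in this comparison.

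After 24 h of BI-D1870 alone, FKBP4 and TRAP1 fell most and HSP90AA1 stayed close to its level with DMSO. Many other genes were called as well: 47.1% of the 21328 genes tested passed, 22.8% higher and 24.3% lower. Of the members, 1 was higher, 6 were lower and 3 did not pass, with a median log2 fold change of -0.17 over the members and -0.01 over all genes. FKBP4 had 180.0 and 181.1 CPM with BI-D1870, against 297.1 and 298.3 CPM with DMSO, a log2 fold change of -0.72 (SE 0.0396, adjusted p = 1.5e-11). TRAP1 had 91.1 and 95.5 CPM with BI-D1870, against 124.5 and 123.6 CPM with DMSO, a log2 fold change of -0.41 (SE 0.0443, adjusted p = 2.1e-07). In both genes the groups did not overlap. HSP90AB1 had 2372 and 2289 CPM with BI-D1870, against 2798 and 2841 CPM with DMSO, a log2 fold change of -0.27 (SE 0.0337, adjusted p = 1.2e-06). AHSA1 fell by 0.23, PTGES3 by 0.19 and STIP1 by 0.15 on the log2 scale (adjusted p = 0.00065, 0.00030 and 0.0025), and STIP1 did not pass without BI-D1870 library 2 (log2 fold change -0.09, adjusted p = 0.16).

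CDC37 was the exception in direction. It had 588.9 and 599.1 CPM with BI-D1870, against 517.7 and 517.2 CPM with DMSO, a log2 fold change of 0.20 (SE 0.0359, adjusted p = 0.00012). HSP90AA1 had 1650 and 1631 CPM with BI-D1870, against 1614 and 1621 CPM with DMSO, and its log2 fold change of 0.02 had a 95% interval of -0.06 to 0.10. CHORDC1 and FKBP5 had log2 fold changes of -0.03 and 0.08, with intervals of -0.13 to 0.07 and of -0.02 to 0.17. Neither gene passed. The ratio of FKBP4 to FKBP5 counts per kb was 1.87 ± 0.0191 with BI-D1870 and 3.25 ± 0.178 with DMSO (SD, n = 2 each).

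Cells given both inhibitors were set against the same DMSO libraries, so the 2 comparisons are not independent and are given side by side. With the pair, 46.8% of genes were called, 22.6% higher and 24.3% lower, and of the members 1 was higher, 8 were lower and FKBP5 did not pass (log2 fold change -0.08, 95% interval -0.17 to 0.02), except without DMSO library 2 (-0.13, adjusted p = 0.049). FKBP4 had 161.2 and 154.0 CPM with the pair, a log2 fold change against DMSO of -0.92 (SE 0.0397, adjusted p = 4.4e-13). HSP90AA1 had 1042 and 985.5 CPM with the pair, against 1614 and 1621 CPM with DMSO, a log2 fold change of -0.67 (SE 0.0361, adjusted p = 9.5e-12). The log2 fold changes of the other members that fell were -0.62 for AHSA1, -0.55 for STIP1, -0.54 for HSP90AB1, -0.42 for TRAP1, -0.37 for PTGES3 and -0.36 for CHORDC1, and CDC37 rose by 0.22. The median over the members was -0.48, against -0.01 over all genes.

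**Figure D2:**
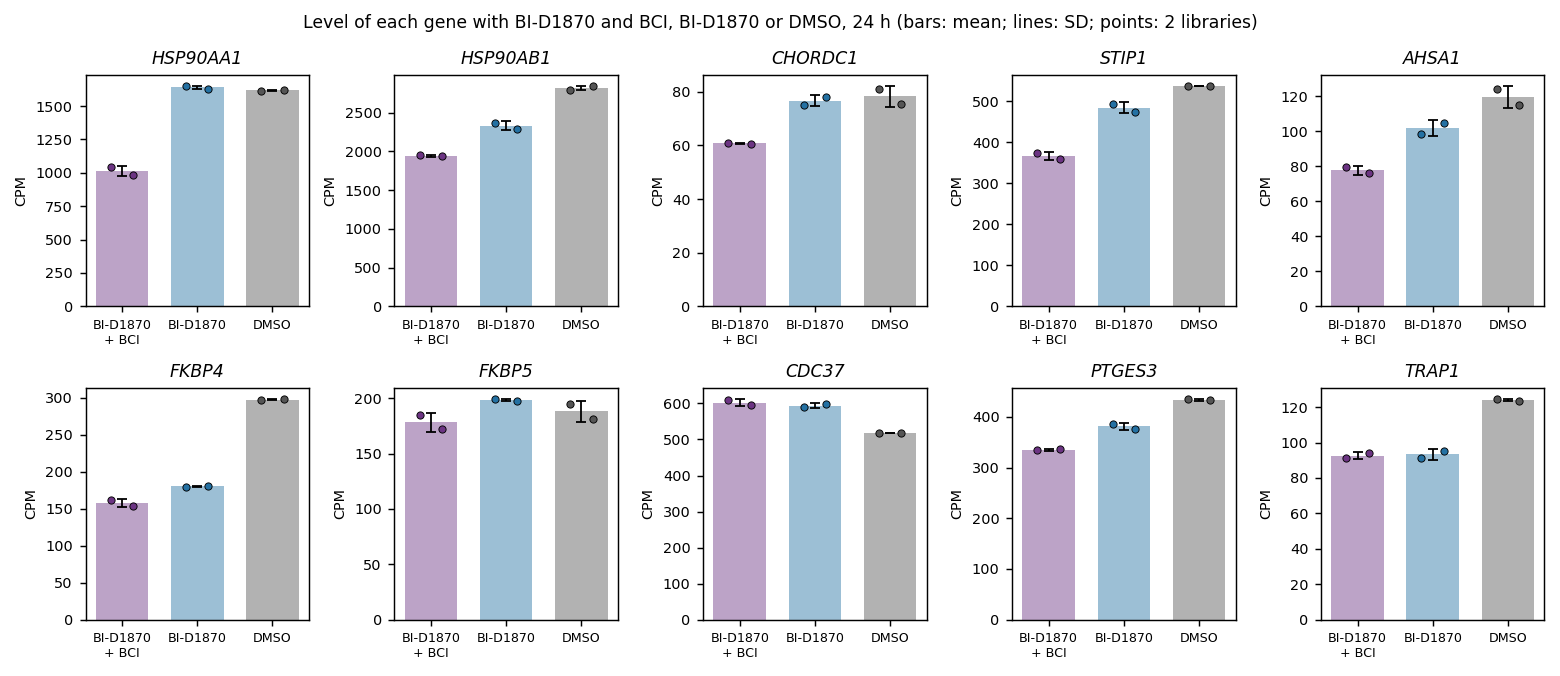
CPM of the 10 genes after 24 h with BI-D1870 and BCI, with BI-D1870 and with DMSO. Bars are means, lines are SD and points are the 2 libraries of each group; HSP90AA1 stands at 1042 and 985.5 CPM with the pair, below 1650 and 1631 CPM with BI-D1870 and 1614 and 1621 CPM with DMSO, while FKBP4 is already lower with BI-D1870.

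BCI added to BI-D1870 lowered both cytosolic HSP90 genes and 5 co-chaperones. By the labels, this comparison of the pair with BI-D1870 is the only test of BCI at 24 h. Against 2.48% of genes lower, 2.22% higher and 4.71% called in either direction, 7 members were lower, none was higher and 3 did not pass, with a median log2 fold change of -0.23 over the members and 0.01 over all genes. HSP90AA1, at 1042 and 985.5 CPM with the pair against 1650 and 1631 CPM with BI-D1870, had a log2 fold change of -0.69 (SE 0.0361, adjusted p = 3.2e-10) and ranked 6 among all genes by p. STIP1 had 373.9 and 360.5 CPM with the pair, against 493.7 and 474.5 CPM with BI-D1870, a log2 fold change of -0.40 (SE 0.0380, adjusted p = 2.4e-06). AHSA1 had 79.5 and 75.9 CPM with the pair, against 98.5 and 105.0 CPM with BI-D1870, a log2 fold change of -0.39 (SE 0.0502, adjusted p = 8.7e-05). Neither gene's libraries overlapped between the groups. CHORDC1 had 61.0 and 60.7 CPM with the pair, against 75.2 and 78.1 CPM with BI-D1870, a log2 fold change of -0.33 (SE 0.0498, adjusted p = 0.00041). HSP90AB1 had 1954 and 1935 CPM with the pair, against 2372 and 2289 CPM with BI-D1870, a log2 fold change of -0.26 (SE 0.0337, adjusted p = 8.7e-05).

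The smallest of the 7 falls were the least stable. FKBP4 fell by 0.20 and PTGES3 by 0.19 on the log2 scale (adjusted p = 0.0057 and 0.0047). FKBP4 did not pass without BI-D1870 library 1, BI-D1870 library 2 or library 2 of the pair (adjusted p = 0.060, 0.056 and 0.12), and PTGES3 did not pass without BI-D1870 library 1 or library 1 of the pair (adjusted p = 0.093 and 0.051). FKBP5 had 184.4 and 172.3 CPM with the pair, against 199.0 and 197.4 CPM with BI-D1870; its log2 fold change of -0.15 had an adjusted p of 0.062, and it passed with DESeq2 (adjusted p = 0.037), without the low-count filter (adjusted p = 0.018) and with only the groups compared (adjusted p = 0.032). CDC37 and TRAP1 had log2 fold changes of 0.02 and -0.01, with 95% intervals of -0.05 to 0.10 and of -0.10 to 0.08. The direction for the 7 genes was opposite to that of BCI alone at 4 h, and the 2 comparisons differ in time, in table and in the presence of BI-D1870.

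The lists were counted against the 2.48% of all genes lower and 2.22% higher with the pair than with BI-D1870. Of 35 further co-chaperones, 7 were lower and none was higher. CACYBP had 100.6 and 98.5 CPM with the pair, against 123.6 and 126.0 CPM with BI-D1870 (log2 fold change -0.33, adjusted p = 8.7e-05). HSP90B1, the form in the endoplasmic reticulum, fell by 0.30 and PPID by 0.28 (adjusted p = 0.00018 and 0.0074). Of this list 2 were lower without BI-D1870 library 1, 3 without BI-D1870 library 2 and 2 without library 2 of the pair. Of the 18 targets of heat shock factor 1, 9 were lower and 2 higher. HSPA8, the constitutive HSP70 gene, had 1792 and 1755 CPM with the pair, against 3875 and 3950 CPM with BI-D1870, a log2 fold change of -1.14 (SE 0.0338, adjusted p = 7.0e-14). HSPA6, an inducible HSP70 gene, went the other way at a low level, with 1.93 and 1.45 CPM with the pair against 0.599 and 0.284 CPM with BI-D1870 (log2 fold change 1.95, adjusted p = 0.0023). With a library left out, between 5 and 7 of these targets passed; without BI-D1870 library 2 or library 1 of the pair no target was higher. Of 32 clients tested, 1 rose and 3 fell, among them JAK2, which fell by 0.21 (adjusted p = 0.0061), and none passed without BI-D1870 library 1 or library 2 of the pair.

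In the persistent cells no member passed in any of the 3 comparisons, and the parental libraries stood far apart. HSP90AA1 had 377.6 and 383.3 CPM in FedP cells and 1050 and 849.8 CPM in RuxP cells, against 541.2 and 899.1 CPM in parental cells. Both FedP libraries were below every other library, and RuxP overlapped with the parental cells. The log2 fold change of HSP90AA1 was -0.92 in FedP cells (SE 0.260, adjusted p = 0.094) and 0.40 in RuxP cells (SE 0.258, adjusted p = 0.39). HSP90AB1 had 1473 and 1507 CPM in FedP cells and 2336 and 2083 CPM in RuxP cells, against 1612 and 2241 CPM in parental cells. Its log2 fold change was -0.37 in FedP cells (95% interval -0.83 to 0.08) and 0.20 in RuxP cells (95% interval -0.26 to 0.65). FedP and RuxP were set against the same parental libraries.

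The co-chaperones differed in where FedP cells stood. CHORDC1 had 29.2 and 28.6 CPM in FedP cells and 68.3 and 51.5 CPM in RuxP cells, against 44.2 and 77.0 CPM in parental cells, with a log2 fold change of -1.07 in FedP cells (adjusted p = 0.088). FKBP5 had 44.5 and 45.1 CPM in FedP cells and 105.4 and 83.5 CPM in RuxP cells, against 69.8 and 86.4 CPM in parental cells, with a log2 fold change of -0.80 in FedP cells (adjusted p = 0.063). STIP1 had 236.0 and 228.2 CPM in FedP cells and 310.8 and 325.7 CPM in RuxP cells, against 372.8 and 334.8 CPM in parental cells, with a log2 fold change of -0.61 in FedP cells (adjusted p = 0.060). In these 3 genes both FedP libraries were below all 4 others, as they were for HSP90AA1, HSP90AB1, PTGES3 and AHSA1. The share of all genes that separated in this way was not counted. FKBP4 had 181.3 and 181.8 CPM in FedP cells and 149.3 and 156.4 CPM in RuxP cells, against 133.7 and 108.0 CPM in parental cells, with a log2 fold change of 0.59 in FedP cells (adjusted p = 0.090). CDC37 had 565.5 and 539.7 CPM in FedP cells and 528.5 and 588.4 CPM in RuxP cells, against 949.7 and 765.8 CPM in parental cells, with log2 fold changes of -0.63 in FedP cells and -0.62 in RuxP cells (adjusted p = 0.076 and 0.081). The FedP libraries of FKBP4 and of TRAP1 were above all others, and the 4 libraries of persistent cells were below both parental libraries for CDC37. For these patterns too the share of all genes was not counted, so none of them is read as particular to the members. PTGES3, AHSA1 and TRAP1 had log2 fold changes in FedP cells of -0.40, -0.25 and 0.45, and in RuxP cells of 0.52, 0.22 and 0.01.

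**Figure D3:**
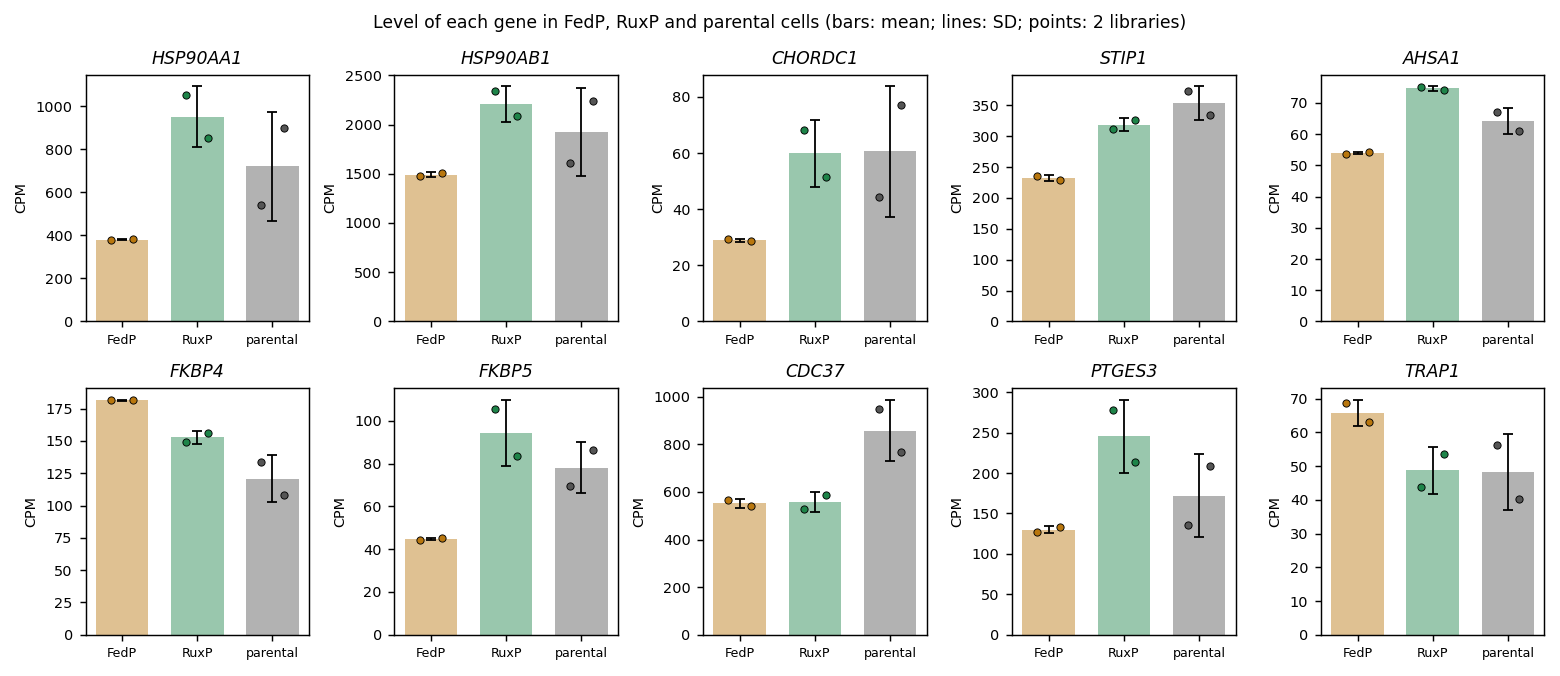
CPM of the 10 genes in FedP, RuxP and parental cells. Bars are means, lines are SD and points are the 2 libraries of each group; the parental points of HSP90AA1, at 541.2 and 899.1 CPM, lie further apart than those of FedP, at 377.6 and 383.3 CPM.

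How many members passed in the persistent cells turned on the tool and on single libraries. For FedP against parental cells, edgeR called 6.63% of the 15924 genes (3.84% higher and 2.79% lower) and 0 members. DESeq2 called 6 members and 2560 genes. At an unadjusted p under 0.05 in edgeR there were 6 members and 3975 genes. Which members passed also changed with the parental library left out. The log2 fold change of HSP90AA1 in FedP cells ranged from -1.27 to -0.51 with a library left out. Those of FKBP4 and TRAP1 were 0.72 and 0.68 without parental library 1. That of STIP1 was -0.55 without parental library 1 and -0.68 without parental library 2. For RuxP against parental cells, edgeR called 6.44% of genes (4.28% higher and 2.17% lower) and 0 members. DESeq2 called 1 member, CDC37 (adjusted p = 0.012), and 2469 genes. At an unadjusted p under 0.05 in edgeR there were 1 member and 3800 genes. Without parental library 2 the log2 fold changes were 0.81 for HSP90AA1, 0.45 for HSP90AB1, 0.86 for PTGES3 and -0.77 for CDC37. For FedP against RuxP cells, edgeR called 1.39% of genes (0.232% higher and 1.16% lower) and 0 members. DESeq2 called 7 members and 3605 genes. At an unadjusted p under 0.05 in edgeR there were 7 members and 5103 genes. In that comparison HSP90AA1 had a log2 fold change of -1.32 (SE 0.262, adjusted p = 0.072), FKBP5 of -1.08 (SE 0.191, adjusted p = 0.060), CHORDC1 of -1.05 (adjusted p = 0.10) and PTGES3 of -0.92 (adjusted p = 0.099). When any library of either line was left out, 0 members and 0 genes were called. The summed level of the 13 erythroid and megakaryocytic markers also differed, at 3870 to 3978 CPM in FedP cells, 1960 to 2305 CPM in RuxP cells and 3417 to 5278 CPM in parental cells, and its part in the members' levels was not tested.

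In the lists, 2 of the 18 targets of heat shock factor 1 were lower in FedP than in parental cells and none was higher. Of all genes, 2.79% were lower and 3.84% higher in that comparison. HSPA8 had 810.2 and 816.1 CPM in FedP cells, against 1590 and 1852 CPM in parental cells (log2 fold change -1.08, adjusted p = 0.012). DNAJA1, its J-domain partner, fell by 1.03 (adjusted p = 0.049). Neither passed without either FedP library, and which targets passed changed without parental library 1. Of the further co-chaperones, 1 of 35 was called in RuxP cells, against 6.44% of all genes called in either direction. It was NASP, a histone chaperone, with 338.6 and 282.8 CPM there against 95.4 and 153.3 CPM in parental cells (log2 fold change 1.32, adjusted p = 0.035). NASP did not pass without either RuxP library, and which genes of that list passed changed without parental library 2. Among clients, KIT had 73.8 and 75.4 CPM in FedP cells and 148.0 and 140.8 CPM in RuxP cells, against 20.4 and 24.8 CPM in parental cells, with log2 fold changes of 1.72 in FedP cells and 2.68 in RuxP cells (adjusted p = 0.0055 and 0.0030).

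The cytosolic HSP90 genes together took 0.766 ± 0.0173% of all counts with BCI at 4 h and 0.345 ± 0.00141% with DMSO (SD, n = 2 each). The shares were 0.251 ± 0.0265% with BCI and 0.244 ± 0.0226% with DMSO at 48 h. At 24 h they were 0.298 ± 0.00304% with the pair, 0.393 ± 0.00502% with BI-D1870 and 0.443 ± 0.00693% with DMSO. The balance between the inducible and the constitutive gene changed too: the ratio of HSP90AA1 to HSP90AB1 counts per kb was 0.544 ± 0.0130 with BCI and 0.259 ± 0.00149 with DMSO at 4 h, and 0.203 ± 0.0290 and 0.203 ± 0.0276 at 48 h. It was 0.296 ± 0.00948 with the pair, 0.400 ± 0.00686 with BI-D1870 and 0.326 ± 0.00262 with DMSO, and 0.145 ± 0.000778 in FedP cells, 0.243 ± 0.0166 in RuxP cells and 0.209 ± 0.0263 in parental cells. No group of the 24 h table overlapped with another in either measure. No test was run on these shares and ratios.

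**Figure D4:**
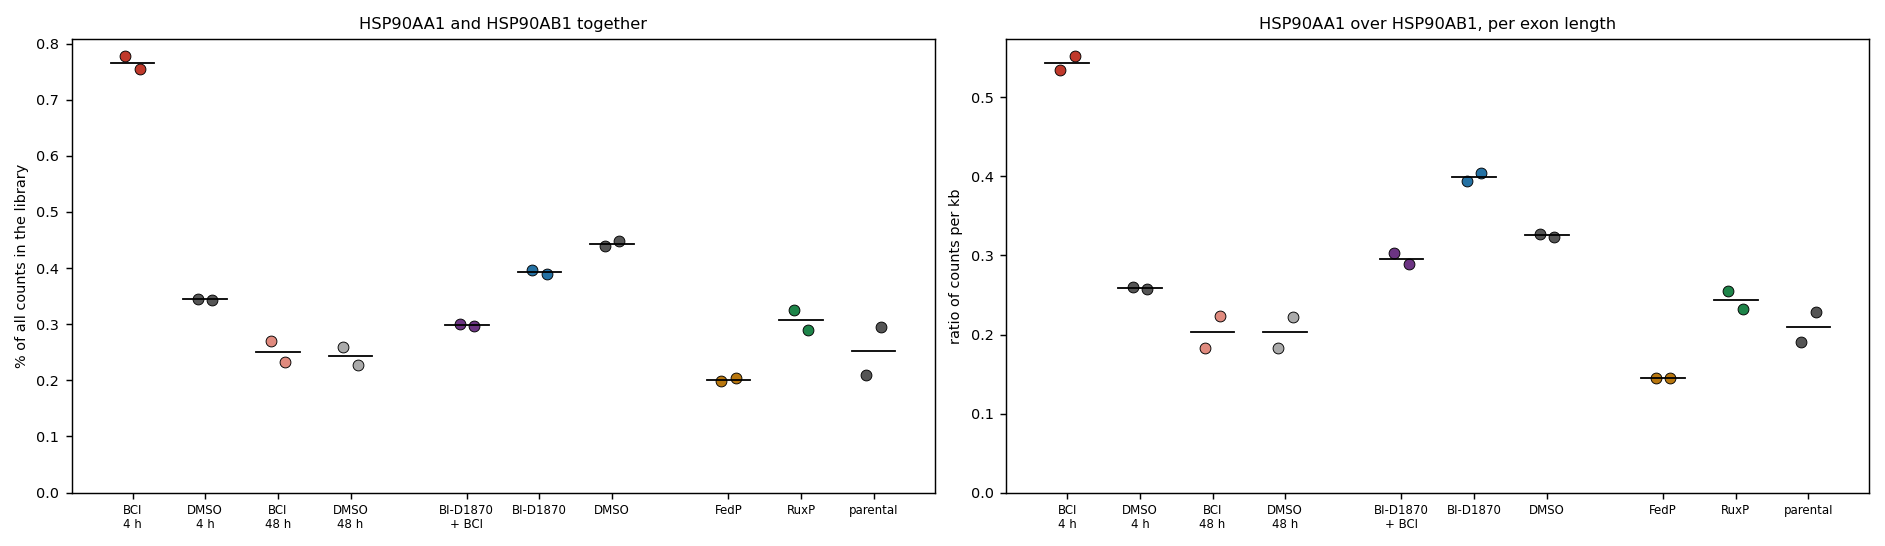
Share of all counts taken by HSP90AA1 and HSP90AB1 together (left, in %) and ratio of HSP90AA1 to HSP90AB1 counts per kb of exon (right), by group. Points are libraries and lines are means. Among the groups of its own table, BCI at 4 h stands highest in both panels, at 0.766% and 0.544. FedP cells stand lowest among the groups of theirs, at 0.201% and 0.145.

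The genes whose log2 fold changes over the 6 comparisons with a DMSO or parental control were most like those of a member were looked up among 9879 genes that averaged 4 CPM or more in each table. For HSP90AA1 they were CACYBP, CHORDC1 and EFCAB7, with root mean square differences of 0.22, 0.23 and 0.32 on the log2 scale. For HSP90AB1 they were ANKMY2, JMJD1C and AHSA1 (0.054, 0.10 and 0.11), and for FKBP5 they were KIAA1586, UBE3A and ZNF551 (0.093, 0.097 and 0.10). The likeness rests on 6 values that share controls, and the search chose the smallest differences, so it is a description.

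**Figure D5:**
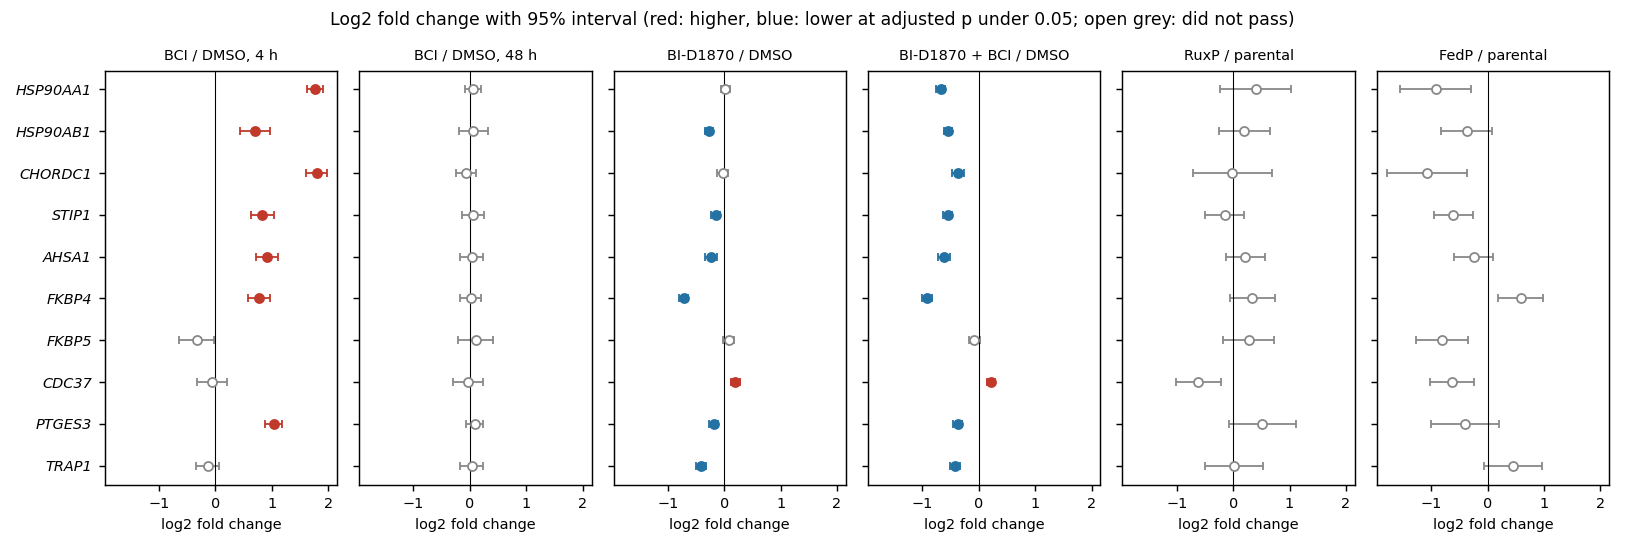
Log2 fold changes of the 10 genes in the 6 comparisons with a DMSO or parental control; lines are 95% intervals, filled points are genes called at an adjusted p under 0.05 and open points are genes that did not pass. With BCI at 4 h 7 genes lie to the right, up to 1.79 for CHORDC1, and with the pair 8 lie to the left, down to -0.92 for FKBP4.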

How the data were processed

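RNA of HEL cells was sequenced in 20 libraries, 10 groups of 2. The authors deposited 3 tables of raw gene counts, per the labels. The submitters' processing notes name bcl2fastq, the aligner STAR 2.5.1a, the build GRCh38 and edgeR. The counter, its annotation and its strand setting were not given in the sources used here. Of counts between 1 and 20, 59.8% to 73.1% were even, so both mates of a pair may have been counted. In the BCI table the headings of the later libraries say 24 h but their labels say 48 h, which was used. Repeated lines of a gene with the same counts (116, 116 and 130) were dropped, and no value column lacked a sample.

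Each table was fitted alone, with all its groups, in R 4.3.3 with edgeR 4.0.16: filterByExpr, TMM, the quasi-likelihood test without a replicate block, and Benjamini-Hochberg adjustment over all genes tested, called under 0.05. Residual degrees of freedom were 4, 3 and 3. Each SE was the absolute log2 fold change divided by the square root of F. Exon lengths, each the union of all annotated exons of a gene, and gene positions are from GENCODE 29 (GRCh38). The code was tested on simulated counts. DESeq2 1.42.0, RLE scaling, no filter, only the groups compared, a replicate block and each library left out were alternatives. No source says that replicates were separate cultures, so p-values measure the spread between these libraries, which may be technical. The members and lists were chosen with earlier results of these data known. All members were named, and from each list at most the 3 called genes with the largest absolute log2 fold change per comparison. Intervals are at 95%. Some genes of the lists are not reported here by name.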

Additional observations from a re-analysis of the deposited data

Results flagged for a closer look

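The response to BCI differed between the times for 6 of the 10 genes, by a test of the difference itself in edgeR's quasi-likelihood fit. All 6 were lower at 48 h, against 1.37% of all genes lower and 2.08% higher. The log2 response at 48 h minus that at 4 h was -1.71 for HSP90AA1, the inducible HSP90 gene, and -1.87 for CHORDC1. It was -0.94 for PTGES3, -0.88 for AHSA1, -0.78 for STIP1 and -0.75 for FKBP4. The calls of AHSA1, STIP1 and FKBP4 did not hold in every fit with a library left out. All 4 libraries of each time entered the test, so the rise of the 6 genes at 4 h is part of this result and not separate from it. Groups of 2 are too small for a check of single outlying libraries.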

How the results depend on the processing

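Of 43 member values called, 382 of 405 values under the alternatives were still called in the same direction, 23 were no longer called and 0 reversed. Members called for the difference between times were 3 to 7 with a library left out; for RuxP against parental cells they were 1 with DESeq2 and 0 to 4 with a library left out; for FedP against parental cells 1 with RLE scaling, 3 without the filter, 6 with DESeq2 and 0 to 9 with a library left out; for FedP against RuxP cells 4 without the filter, 7 with DESeq2 and 7 with only the groups compared. All genes called for BCI at 4 h were 2354, against 5501 with only the groups compared and 574 to 730 with a library left out. For BCI at 48 h they were 0, against 27 without the filter. For the difference they were 757, against 1166 with the replicate block, 1658 without the filter, 1427 with DESeq2 and 98 to 1741 with a library left out; for DMSO at 48 h against 4 h 5837, against 2576 to 6080 with a library left out; for the pair against BI-D1870 1004, against 358 to 517. For RuxP against parental cells they were 1026, against 324 with the replicate block, 1836 without the filter, 2469 with DESeq2, 464 with only the groups compared and 165 to 4316 with a library left out. For FedP against parental cells they were 1055, against 272, 1818, 2560, 576 and 99 to 5380 in the same order, and for FedP against RuxP cells 222, against 0, 2886, 3605, 5771 and 0 to 0. The cause was not tested; a fit with a library left out has fewer samples, and the lone library of its group is taken to vary like the others.

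Changes of sign occurred only in values that were not called in the fits as reported. CHORDC1 in RuxP cells had a log2 fold change of 0.0079 with the replicate block, 0.0100 without the filter and 0.0016 with only the groups compared. With a library left out it ranged from -0.35 to 0.44, and HSP90AB1 and TRAP1 in RuxP cells from -0.0072 to 0.45 and from -0.21 to 0.28. At 48 h of BCI the ranges were -0.11 to 0.21 for HSP90AB1, -0.033 to 0.13 for STIP1, -0.038 to 0.098 for AHSA1, -0.075 to 0.096 for FKBP4, -0.088 to 0.32 for FKBP5, -0.19 to 0.16 for CDC37 and -0.080 to 0.15 for TRAP1. They were -0.13 to 0.21 for CDC37 in the difference, -0.34 to 0.068 for FKBP5 between DMSO times, -0.082 to 0.023 for CHORDC1 with BI-D1870, -0.044 to 0.010 for TRAP1 in the pair against BI-D1870 and -0.091 to 0.064 for CDC37 in FedP against RuxP cells. Same-numbered libraries shared deviations at 48 h, where these correlated at 0.83 between BCI and DMSO. Replicate numbers did not pair libraries in this way throughout: the correlation was -0.01 at 4 h and -0.71 between RuxP and parental cells. The replicate block fitted 1 replicate effect over both times, so no fit used the pairing at 48 h alone. With the replicate block HSP90AB1 passed in the difference (adjusted p = 0.014), CDC37 between DMSO times (log2 fold change -0.33, adjusted p = 0.029) and FKBP5 in the pair against BI-D1870 (log2 fold change -0.15, adjusted p = 0.022); it changed no other call of a member.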
